A study of Mus musculus with 2 samples.

Results

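The mitochondrially encoded genes are the genes carried by the circular mitochondrial DNA rather than by the chromosomes of the nucleus. They were taken as every Ensembl gene of the deposited gene tables whose symbol starts with mt-, which gave 37 members of 43346 Ensembl genes: 13 protein genes, 2 rRNAs and 22 tRNAs. The samples were 2 libraries of total RNA from whole hindbrain of healthy B6NCrl mouse embryos at 13.5 days, males and females pooled, with no treatment and no genetic change named in the labels. Each library was made from 10 ng of RNA above 200 nt, with ERCC spike-ins, which are synthetic RNAs added in known amounts. Both form 1 group. The labels number them as biological replicates 1 and 2 and give both the same donor label, so part of what separates them may be technical. The design holds no contrast between conditions, so the members were compared by class, strand and gene order within each library, and between the 2 libraries.

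Mitochondrial DNA is transcribed by a dedicated RNA polymerase from both strands into long precursors that run across many genes. The tRNAs lie between most of the other genes, and their excision by processing enzymes releases the rRNAs and the mRNAs. Most of the mRNAs then receive short poly(A) tails. All 13 protein genes encode subunits of the respiratory chain or of ATP synthase, and the 2 rRNAs and 22 tRNAs serve the ribosomes that translate them inside the organelle. Pieces of mitochondrial DNA have also been inserted into nuclear chromosomes during evolution, where they are annotated as pseudogenes, and a read from such a stretch of sequence can fit both places.

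A run of such copies bears on several of the members. Gene models on mm10 from GENCODE M21 place 7 unprocessed pseudogenes at chr1:24611535-24616197 on the minus strand, in the order of their mitochondrial counterparts. Gm29216 copies the 3′ part of mt-Co1, Gm28661 copies mt-Co2, Gm10925 copies mt-Atp6, Gm28437 copies mt-Co3, Gm28438 copies mt-Nd3, Gm10222 copies mt-Nd4l and Gm28439 copies the 5′ part of mt-Nd4. Aligned without gaps, 5 of them had 0 differing bases. Gm28438 differed from mt-Nd3 by T3C, with positions counted from 1 at the first base of the mitochondrial gene, the mitochondrial base first and the base of the copy last. Gm29216 differed from mt-Co1 by T1056A, C1057T, A1059G, A1060G, C1062A and A1066T, all within its first 13 bases. The first bases of these 2 copies are shown beside their counterparts, since they hold every difference found. Sequences are from the GENCODE M21 transcripts, 5′ to 3′, with the differing bases in capitals. The mt-Co1 stretch is chrM:6381-6423 on the plus strand and the Gm29216 stretch is chr1:24616155-24616197 on the minus strand. The mt-Nd3 stretch is chrM:9459-9491 and the Gm28438 stretch is chr1:24613087-24613119, on the same 2 strands.
mt-Co1: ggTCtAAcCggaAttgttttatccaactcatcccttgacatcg
Gm29216: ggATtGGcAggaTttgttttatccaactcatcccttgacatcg
mt-Nd3: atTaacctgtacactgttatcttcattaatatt
Gm28438: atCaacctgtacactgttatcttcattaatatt

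Where a copy has no differing base, it can be told from the mitochondrial gene only at the end of the gene model, because the pseudogene records stop 1 or 3 bases short (Gm28439, a partial copy, stops far earlier). The last 100 bases of mt-Co3, chrM:9291-9390, and of mt-Nd4l, chrM:10074-10173, both on the plus strand, are given with the bases that the copy's record lacks in capitals. A read of 100 bases has to reach those capitals to fit mt-Co3 or mt-Nd4l and not the copy.
mt-Co3: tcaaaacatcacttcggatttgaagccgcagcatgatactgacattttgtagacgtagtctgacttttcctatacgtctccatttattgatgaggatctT
mt-Nd4l: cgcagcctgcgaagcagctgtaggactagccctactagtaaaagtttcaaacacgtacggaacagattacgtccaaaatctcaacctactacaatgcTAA

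The members fell into 3 kinds by how many of their 100-base windows also occur in a nuclear gene. The windows were 100 bases long because the deposited effective length, the number of positions at which a read can start, was 99 bases below the annotated length for all 26303 rows with a single transcript and an effective length above 0. For mt-Co3, mt-Co2, mt-Atp6, mt-Nd4l and mt-Nd3, over 95% of the windows were shared: 684 of 685, 582 of 585, 579 of 582, 195 of 198 and 243 of 249. The shared part was 777 of 1279 windows (60.8%) for mt-Nd4, 446 of 1446 (30.8%) for mt-Co1 and 30 of 939 (3.19%) for mt-Nd2. The other 7 rRNA and protein members, mt-Rnr1, mt-Rnr2, mt-Nd1, mt-Atp8, mt-Nd5, mt-Nd6 and mt-Cytb, had no window in any nuclear gene. From the side of the copies, every window of Gm28437, Gm28661, Gm10925, Gm10222 and Gm28439 was found in the counterpart, and Gm28438 and Gm29216 had 3 and 13 windows of their own. Values of the 5 members with over 95% shared windows, and of their copies, are therefore uncertain one by one.

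The libraries held 32314725 and 37772709 estimated counts of Ensembl genes in replicates 1 and 2. The precision stated by counts covers counting error only, and that of the deposited intervals covers read assignment as well. Neither covers the spread between animals. Of the hindbrain markers, genes for patterning factors of that region, 5 of 6 reached 1 TPM in both libraries (a level per length, relative to all rows of a library) and En2, at 0.58 and 0.48 TPM, did not. Of the skeletal muscle markers, 3 of 5 reached it. All 6 erythroid markers, the globins and heme genes of red cells, were detected, with a summed level of 10296 and 10993 TPM. The 4 choroid plexus markers summed to 572 TPM in replicate 1 and 1104 in replicate 2, and the 5 meningeal markers to 741 and 574. By the exact binomial test described below, all 4 choroid plexus markers were called higher in replicate 2 and 4 meningeal markers lower. It also called 4 erythroid markers higher and 2 lower, and 3 skeletal muscle and 2 hindbrain markers higher. That test called 12.7% of all genes tested. The part of these tissues in the differences between libraries given below was not tested.

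The 37 members together made up 3.74% of the summed TPM of Ensembl genes in replicate 1 and 3.75% in replicate 2 (3.75% ± 0.00640, SD, n = 2). The 7 copies on chromosome 1 held another 2.19% and 2.14%, so mitochondrial genes and copies together came to 5.94% and 5.89%. By estimated counts the members took 1.84% and 1.85% of the libraries, and the copies 0.740% and 0.722%. The 2 rRNAs gave 17.6% and 18.1% of the mitochondrial TPM and 29.2% and 30.1% of the mitochondrial counts, and the protein genes gave the rest. With the counts of the copies added to those of the protein genes, the rRNAs gave 20.8% and 21.7% of the counts. These are shares of the listed values, and the yield of reads per molecule of rRNA and of mRNA was not measured. Among all Ensembl genes ordered by TPM, 11 of the 37 members stood within the first 100 in either library. In bulk tissue, the number of cells and the RNA per cell cannot be told apart in these shares.

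**Figure D1:**
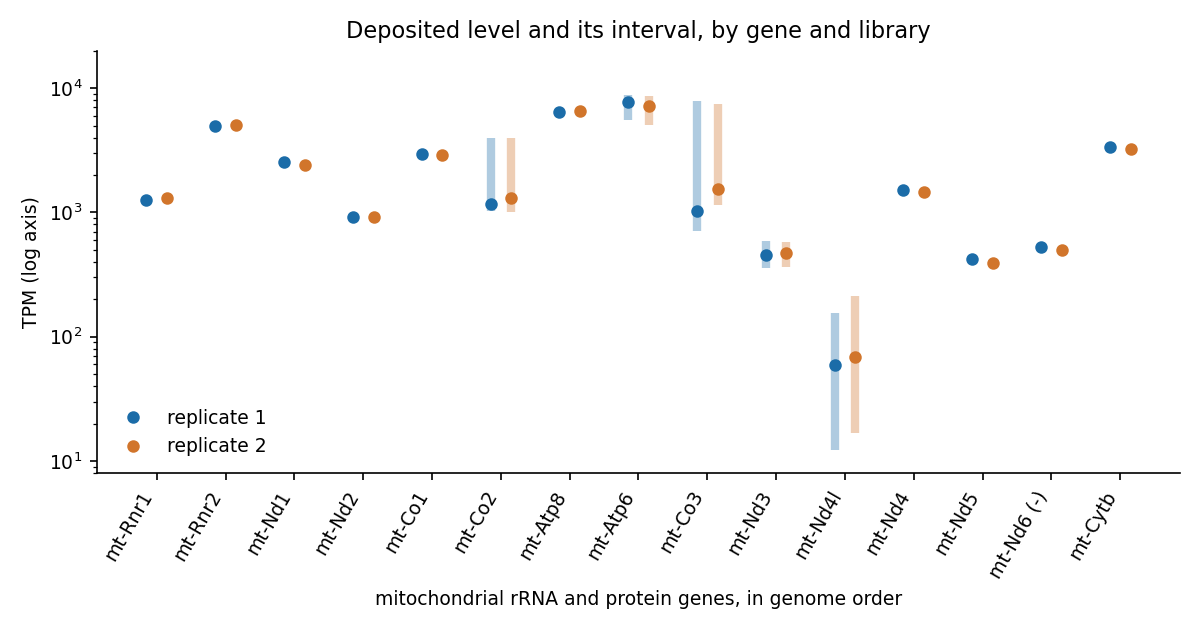
Deposited TPM (points, log axis) of the 15 mitochondrial rRNA and protein genes in genome order, for replicate 1 and replicate 2, with the deposited interval of the level (pale bars) and the minus strand gene marked (-). Levels ran from 59.2 TPM for mt-Nd4l to 7700 TPM for mt-Atp6 in replicate 1, and the bars are visible only for the 5 genes with over 95% of windows shared with a nuclear copy.

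The 2 rRNAs, the RNA cores of the small and large subunits of the mitochondrial ribosome, come first in gene order. mt-Rnr1, the small subunit rRNA at chrM:70-1024, was at 1266 TPM in replicate 1 and 1311 in replicate 2. mt-Rnr2, the large subunit rRNA at chrM:1094-2675, was at 4952 and 5069 TPM. The large subunit rRNA was thus 3.91-fold and 3.87-fold above the small one, a log2 ratio of 1.96 ± 0.012 (SD, n = 2), although both are released from the same stretch of precursor and each ribosome holds 1 of each. Neither rRNA shares a 100-base window with a nuclear gene. The yield of reads per molecule of each rRNA was not measured.

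Complex I, the entry point of electrons from NADH, has 7 mitochondrial subunit genes, and their levels spanned a wide range. mt-Nd1, at chrM:2751-3707, was the highest of them, at 2563 TPM in replicate 1 and 2394 in replicate 2. mt-Nd4 followed at 1518 and 1459 TPM and mt-Nd2 at 922 and 917. mt-Nd6, the only protein gene on the minus strand, at chrM:13552-14070, was at 529 and 495 TPM. mt-Nd5, the longest protein gene, was at 418 and 393 TPM. mt-Nd3 was listed at 458 and 475 TPM, and mt-Nd4l, at chrM:9877-10173, at 59.2 and 68.2 TPM, the lowest of all 15 rRNA and protein members. Both mt-Nd3 and mt-Nd4l belong to the genes whose reads fit a copy. The median of the 7 was 529 TPM in replicate 1 and 495 in replicate 2.

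Complex III, which passes electrons to cytochrome c, has 1 mitochondrial subunit gene, mt-Cytb, at chrM:14145-15288. It was at 3355 TPM in replicate 1 and 3228 in replicate 2, the highest of the protein genes that lie downstream of mt-Co3. It shares no window with a nuclear gene.

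Complex IV, cytochrome c oxidase, has its 3 catalytic core subunits encoded here. mt-Co1, at chrM:5328-6872, was at 2971 and 2908 TPM, with intervals of 2868 to 2911 and 2820 to 2860. mt-Co2 was listed at 1163 and 1298 TPM, and mt-Co3, at chrM:8607-9390, at 1026 and 1544 TPM. The deposited interval of mt-Co3 ran from 704 to 7882 TPM in replicate 1 and from 1150 to 7414 in replicate 2, and that of mt-Co2 from 1035 to 3966 and from 1001 to 3940. The intervals of the 2 libraries overlapped for both genes, although the mt-Co3 values differed by a log2 ratio of 0.59.

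The 2 ATP synthase genes held the highest deposited levels. mt-Atp6, part of the proton channel, was at 7700 TPM in replicate 1 and 7130 in replicate 2, and mt-Atp8, a small membrane subunit, at 6469 and 6585. The 2 genes share 1 mRNA, and the end of mt-Atp8 overlaps the start of mt-Atp6 by 43 bases at chrM:7927-7969. The overlap is shown in capitals within chrM:7897-7999 on the plus strand, since it holds bases that belong to both gene models. No 100-base window of either gene lies within the other.
mt-Atp8 and mt-Atp6: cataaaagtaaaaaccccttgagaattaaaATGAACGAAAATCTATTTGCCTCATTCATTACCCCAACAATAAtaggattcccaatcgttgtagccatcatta
At 204 bases, mt-Atp8 has an effective length of 105, which raises its level by 1.94-fold over a level per annotated length. For mt-Rnr2 the same step gives 1.07-fold. As counts per kilobase of annotated length, scaled to the library total, mt-Atp8 stood at 2128 and 2189, and mt-Atp6 at 4206 and 3935.

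All 22 tRNA genes were listed at 0 counts and 0 TPM in both libraries, and no level can be read from that. The genes are 59 to 75 bases long, and the tables give every row of up to 99 bases an effective length of 0: this held for 28403 rows, 2218 of them Ensembl genes, and 0 of them had counts. The RNA had also been selected for more than 200 nt. On the plus strand these were mt-Tf, mt-Tv, mt-Tl1, mt-Ti, mt-Tm, mt-Tw, mt-Td, mt-Tk, mt-Tg, mt-Tr, mt-Th, mt-Ts2, mt-Tl2 and mt-Tt. On the minus strand they were mt-Tq, mt-Ta, mt-Tn, mt-Tc, mt-Ty, mt-Ts1, mt-Te and mt-Tp. The shortest, the serine tRNA mt-Ts2 at chrM:11613-11671, and the longest, the leucine tRNA mt-Tl1 at chrM:2676-2750 between mt-Rnr2 and mt-Nd1, are given whole to show that a window of 100 bases cannot lie within either.
mt-Ts2: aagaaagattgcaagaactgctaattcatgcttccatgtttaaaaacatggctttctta
mt-Tl1: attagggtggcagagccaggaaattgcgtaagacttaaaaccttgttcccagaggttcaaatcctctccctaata

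The copies on chromosome 1 were listed at levels like those of the mitochondrial genes. Gm28437, the copy of mt-Co3, was at 9484 TPM in replicate 1 and 8811 in replicate 2, the fifth highest Ensembl gene in both. Gm28661, the copy of mt-Co2, was at 3543 and 3280 TPM, and Gm10925, the copy of mt-Atp6, at 2090 and 2457. Gm28438, the copy of mt-Nd3, was at 1465 and 1454 TPM, and Gm10222, the copy of mt-Nd4l, at 809 and 759. In each of these 5 pairs other than that of mt-Atp6, the copy was listed above the mitochondrial gene. The split differed widely between pairs: the mitochondrial gene was given 78.7% of the summed counts for mt-Atp6 in replicate 1, 24.8% for mt-Co2, 24.0% for mt-Nd3, 9.77% for mt-Co3 and 6.92% for mt-Nd4l. Over these 5 pairs it was 36.8% of 335999 counts in replicate 1 and 38.2% of 389420 in replicate 2, on 16 of 2299 windows that are found in no nuclear gene.

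The 2 pairs that share a part only were listed differently. mt-Co1 had 61.4 counts per effective base in replicate 1 and 70.9 in replicate 2, and Gm29216, its partial copy, had 68.6 and 81.8. Over the whole of mt-Nd4 there were 31.4 and 35.6 counts per effective base, and Gm28439, identical to its first 876 bases, was listed at 0 counts in both libraries. So 6 of the 7 copies had counts and 1 had none. Gm28439 has no base that differs from mt-Nd4, and all its windows were found there. Of the windows of mt-Nd4, 502 were found in no nuclear gene. For the 5 members with over 95% shared, that number ran from 1 for mt-Co3 to 6 for mt-Nd3. Whether this bears on the split of counts was not tested.

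Wide intervals were found only for members of the shared kind among these 15 genes. In replicate 1 the upper bound was 1.01 to 1.06 times the lower one for the 7 genes with no shared window, 1.02 to 1.03 times for the 3 with a shared part, and 1.58 to 12.6 times for the 5 with over 95% shared. The ratios in replicate 2 were 1.01 to 1.06, 1.01 to 1.03 and 1.57 to 12.6. The deposited posterior SD of the count, the spread of the estimate itself, was 13.4% to 254% of the count for the 5 genes in replicate 1 and at most 0.175% for the other 10. Ensembl genes with a mean level of at least 10 TPM numbered 9369, with a median ratio of 1.13 in replicate 1. Of these, 62 (0.662%) had a ratio over 3 in replicate 1. mt-Nd4l, mt-Co3 and mt-Co2 are in that range, with 12.6, 11.2 and 3.83. TPM lay inside its own interval for 6 of the 15 members in each library, because the interval surrounds another estimate, the posterior mean.

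**Figure D2:**
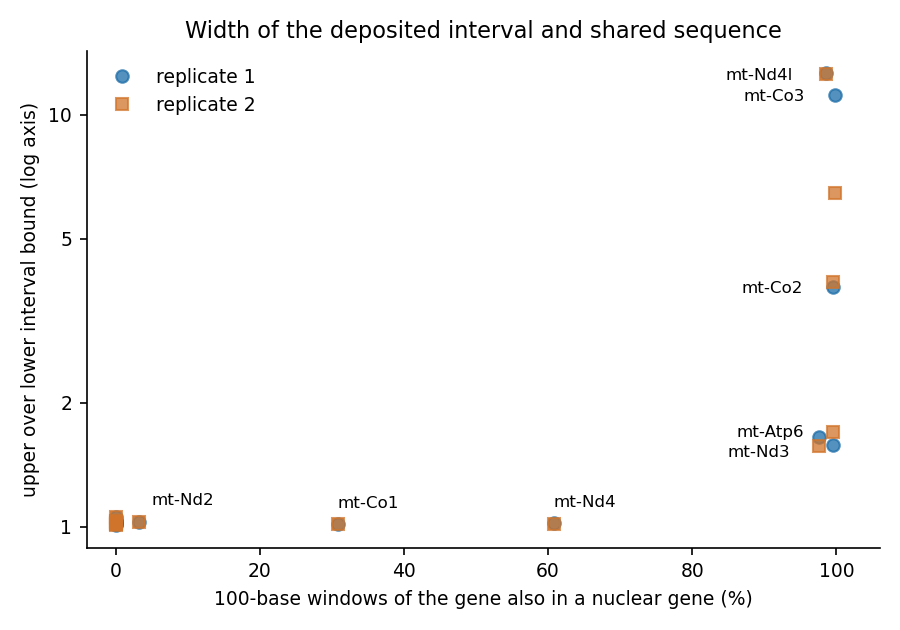
Percent of each gene's 100-base windows that also occur in a nuclear gene, against the upper over the lower bound of the deposited interval (log axis), for the 15 rRNA and protein members in both libraries. The 10 genes at up to 60.8% shared lie close to 1, and the 5 above 95% lie between 1.57 and 12.6.

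Because nearly every read of those 5 genes fits 2 places, the counts of each mitochondrial gene and of its chromosome 1 copy were summed and divided by the effective length of the mitochondrial gene, on the TPM scale of each library. This combined level is an upper limit for the mitochondrial gene, in which any transcript of the copy is included. mt-Co3 then stood at 10496 TPM in replicate 1 and 10343 in replicate 2, the highest of all members. mt-Atp6 came to 9780 and 9574, mt-Co2 to 4688 and 4561, mt-Co1 to 3874 and 3819, mt-Nd3 to 1905 and 1911 and mt-Nd4l to 856 and 816. The combined levels of these 6 genes agreed between the libraries within a log2 difference of 0.069, and the levels alone within 0.59.

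**Figure D3:**
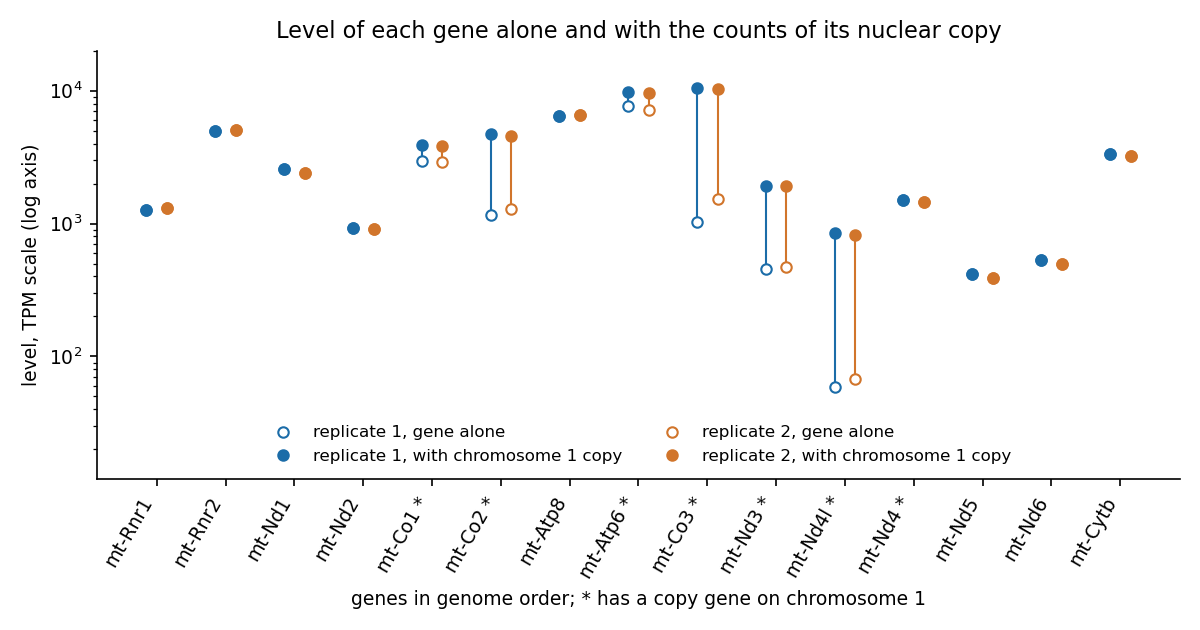
Level on the TPM scale (log axis) of the 15 members in genome order, from the counts of the gene alone (open points) and with the counts of its chromosome 1 copy added (filled points), for both libraries. Genes marked * have a copy, and mt-Co3 moves from 1026 to 10496 and mt-Nd4l from 59.2 to 856 in replicate 1, while mt-Nd4 does not move because its copy has no counts.

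The order of the members depended on this step. By combined level it was mt-Co3, mt-Atp6, mt-Atp8, mt-Rnr2, mt-Co2, mt-Co1, mt-Cytb, mt-Nd1, mt-Nd3, mt-Nd4, mt-Rnr1, mt-Nd2, mt-Nd4l, mt-Nd6 and mt-Nd5, the same in both libraries, and the ranges of the 2 libraries overlapped in 0 of the 14 neighbouring pairs. This order also rests on the effective length. As summed counts per kilobase of annotated length, mt-Atp8 (2128 and 2189) lay below mt-Rnr2, mt-Co2 and mt-Co1 in both libraries. In that unit mt-Nd3 (871 and 883) lay below mt-Nd4 (901 and 874) in replicate 1 and above it in replicate 2. By deposited TPM, 2 of the 14 neighbouring pairs overlapped, mt-Rnr1 with mt-Co3 and mt-Co3 with mt-Co2. The highest protein gene was 130-fold above the lowest in replicate 1 and 105-fold in replicate 2 by TPM, and 25.1-fold and 26.3-fold by combined level. The median of the 13 protein genes was 1163 and 1459 TPM (1311 ± 209, SD, n = 2), and 2563 and 2394 by combined level.

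By complex, the combined levels set the genes of complex I below the rest. The median of the 7 complex I genes was 922 and 917, that of the 3 complex IV genes 4688 and 4561, mt-Cytb of complex III was at 3355 and 3228, and the 2 ATP synthase genes had medians of 8124 and 8079. By deposited TPM the complex IV median was 1163 and 1544 and lay below mt-Cytb. The highest complex I gene, mt-Nd1, lay below the lowest complex IV gene by combined level, mt-Co1. By deposited TPM, mt-Nd1 at 2563 lay above both mt-Co2 and mt-Co3 in replicate 1.

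Genes that leave the precursor on 1 mRNA gave another comparison. mt-Atp6 was 1.19-fold and 1.08-fold above mt-Atp8 by TPM and 1.51-fold and 1.45-fold by combined level. mt-Nd4 was 25.6-fold and 21.4-fold above mt-Nd4l by TPM, and 1.77-fold and 1.79-fold by combined level. Most of the distance in the second pair was gone once the counts of Gm10222 were added to those of mt-Nd4l. As summed counts per kilobase of annotated length, both distances were wider than by combined level. In that unit mt-Atp6 stood at 5342 and 5284 against 2128 and 2189 for mt-Atp8. There mt-Nd4 stood at 901 and 874 against 365 and 351 for mt-Nd4l.

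Position along the genome gave no simple gradient. Over the 13 protein genes, Spearman's rho of TPM with gene order was -0.30 in both libraries and -0.40 by combined level, and rho with gene length was 0.07 and 0.05 by TPM and -0.19 by combined level. These are descriptions over 13 genes that share the library and the precursors. By combined level, each gene from mt-Co1 to mt-Co3 lay above each from mt-Nd3 to mt-Nd6, and mt-Cytb, the last protein gene on the plus strand, again lay above the latter. By deposited TPM, mt-Co2 lay below mt-Nd4 in both libraries, and mt-Co3 in replicate 1.

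By strand, the median of the 12 plus strand protein genes was above mt-Nd6, the minus strand gene. In log2(TPM + 1) the difference was 1.33 in replicate 1 and 1.60 in replicate 2 (1.46 ± 0.19, SD, n = 2). By combined level the difference was 2.47 and 2.49. The plus strand genes below mt-Nd6 were mt-Nd3, mt-Nd4l and mt-Nd5 by TPM and only mt-Nd5 by combined level. The strand setting of the counting is not given in the sources used here, so reads of mt-Nd6 and reads of the plus strand precursor opposite it cannot be told apart, and mt-Nd6 and mt-Nd5 overlap at their ends. The 14 plus strand and 8 minus strand tRNAs, all listed at 0, gave no such comparison.

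Between the 2 libraries, an exact binomial test of the rounded counts given the totals of Ensembl genes, two-sided with Benjamini-Hochberg adjustment over all genes with at least 10 counts, called 10 of the 15 members that could be tested, 4 higher and 6 lower in replicate 2. Over all 19687 genes tested it called 12.7%, and over the 11532 genes whose 2 counts sum to at least 500, as all members but the tRNAs have, 16.2%. The test compares 2 libraries, and at these counts it calls very small differences: mt-Nd1, at a log2 count ratio of -0.083, had an adjusted p of 7.51e-17 in the exact binomial test. By counts, mt-Rnr1, mt-Rnr2, mt-Co2 and mt-Co3 were higher in replicate 2, and mt-Nd1, mt-Atp6, mt-Nd4, mt-Nd5, mt-Nd6 and mt-Cytb were lower. mt-Nd6, with 4589 and 5070 counts, was near the threshold, at an adjusted p of 0.0466 in the exact binomial test. The test took the rounded counts as exact, with no allowance for read assignment. In replicate 1 the posterior SD was 254% of the count for mt-Co3, 89.1% for mt-Co2 and 15.4% for mt-Atp6.

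With the counts of the copies added, 8 members were called, 2 higher and 6 lower, beside 12.7% of all genes tested. mt-Co3 went from a log2 count ratio of 0.61 alone to -0.01 with Gm28437, and its call was lost, at an adjusted p of 0.506 in the exact binomial test. mt-Co2 went from 0.17 to -0.02 and its call turned from higher to lower, at 0.0297 in the exact binomial test. mt-Atp6 lost its call, at -0.02 and an adjusted p of 0.0503 in the exact binomial test. In TPM, the largest absolute log2 ratio was 0.098 among the 7 genes with no shared window, and 0.59 among the 5 with over 95% shared, which became 0.069 after summing. The median log2 ratio of the 13 protein genes was -0.03, beside -0.01 for all genes tested. Of genes with at least 500 counts, 0.624% differed as much as mt-Co3 did.

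The deposited TPM intervals of the 2 libraries did not overlap for 8 of the 15 members, 2 higher and 6 lower in replicate 2, beside 8.07% of all genes tested. These were mt-Rnr1 and mt-Rnr2 on the higher side and mt-Nd1, mt-Co1, mt-Nd4, mt-Nd5, mt-Nd6 and mt-Cytb on the lower side. None of the 5 genes with over 95% shared windows was among them, mt-Co3 included. Members with many counts and narrow intervals pass this criterion at differences under 0.1 on the log2 scale, so the count says that the libraries differ slightly, not by how much. Scaled by the spike-in totals, 12 members were called, 1 higher (mt-Co3) and 11 lower, but this scaling called 40.4% of all genes tested. Of those calls 93.0% were lower, against 47.6% by totals. That scaling put the median log2 count ratio of all genes at -0.14, and the 2 rRNAs then also stood lower in replicate 2.

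**Figure D4:**
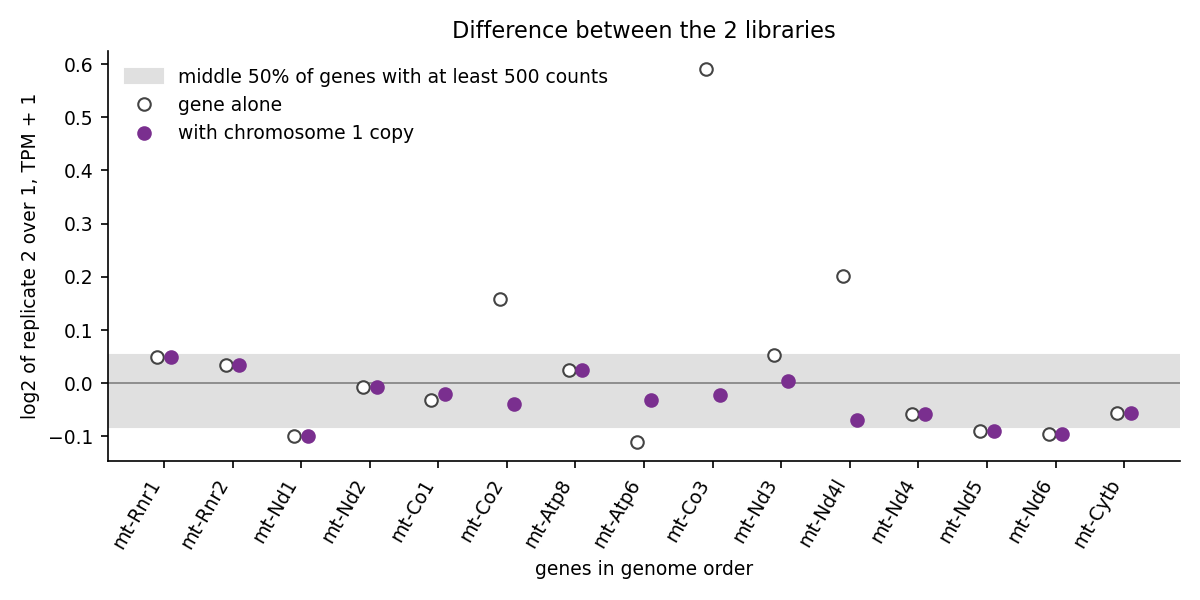
log2 ratio of replicate 2 over replicate 1, on TPM + 1, of the 15 members in genome order, for the gene alone (open points) and with its chromosome 1 copy (filled points). The grey band holds the middle 50% of genes with at least 500 counts, from -0.08 to 0.05. The open points of mt-Co3, mt-Nd4l, mt-Co2 and, just past the edge, mt-Nd3 lie above the band. The filled points of these genes lie within it.

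The expression of these genes depends on proteins made from nuclear genes, and 83 of the 84 genes on 6 lists of such proteins were found in the tables under the names used. All 83 reached 1 TPM in both libraries, beside 62.2% of protein coding genes, and no list member was undetected. List medians over the 2 libraries lay between 14.8 and 28.9 TPM, while 14 of the 15 rRNA and protein members were at 393 TPM or more in both. For replication and packaging of mitochondrial DNA, the highest were the single-strand binding protein Ssbp1 at 104 ± 3.31 TPM, the packaging and transcription factor Tfam at 45.2 ± 0.078 and the ribonuclease Rnaseh1 at 17.4 ± 1.03, and the lowest was the polymerase subunit Polg2 at 7.59 ± 0.37 (mean ± SD, n = 2, here and in the following lists). For transcription, the ribosomal protein Mrpl12, which also binds the polymerase, was at 87.1 ± 0.25 TPM, the factor Mterf3 at 60.1 ± 5.95, and the lowest was Mterf1b at 2.65 ± 0.40. The polymerase itself, Polrmt, was at 34.9 and 30.8 TPM.

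For RNA processing and stability, the mRNA-binding protein Slirp was at 232 ± 3.57 TPM, the RNase P subunit Hsd17b10 at 103 ± 0.72, Fastk at 75.5 ± 4.56 and the lowest, Fastkd5, at 10.1 ± 0.67. For rRNA modification, Trub2 was at 33.8 ± 1.53, Trmt61b at 17.9 ± 2.01, Mrm2 at 17.0 ± 0.70 and Mettl15 lowest at 6.90 ± 1.08. For tRNA modification and charging, the leucyl-tRNA synthetase Lars2 was listed at 732 ± 11.4, Gars at 166 ± 5.16, Kars at 138 ± 1.31 and Mars2 lowest at 2.86 ± 0.028. Among translation factors, the elongation factor Tufm was at 93.7 ± 1.36, Tsfm at 52.4 ± 1.15, Mtif2 at 45.1 ± 2.88 and Taco1 lowest at 6.72 ± 0.13. Of the 83 genes, all tested, the exact binomial test called 1 higher (Mterf2) and 3 lower in replicate 2 (Tbrg4, Trub2 and Gfm2), where it called 12.7% of all genes. Their names, other than that of Trub2, were added after their values were seen, as was Polrmt.

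**Figure D5:**
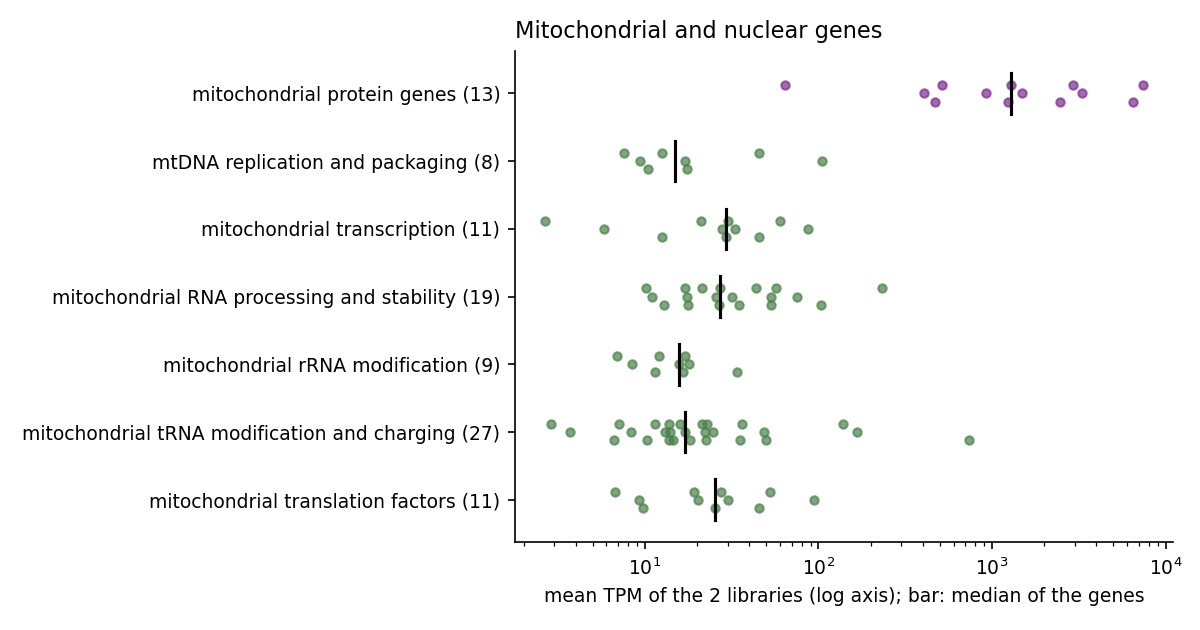
Mean TPM of the 2 libraries (log axis) of the 13 mitochondrial protein genes and of the genes on 6 lists of nuclear genes for mitochondrial gene expression, each point 1 gene and each bar the median over genes, with the number of genes in brackets. The list medians lie between 10 and 30 TPM, and only Lars2 at 732 reaches the range of the mitochondrial genes other than mt-Nd4l.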

How the data were processed

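The authors deposited gene and transcript tables per library with mm10 and GENCODE M4 named in the notes they deposited. Expected counts are, per the file headers, estimated counts from reads shared out among transcripts by the authors. The authors' TPM and FPKM refer to all rows of a library, including spike-ins. The posterior SD of the count and the lower and upper interval bounds are scores deposited by the authors, and the level of the intervals is not stated. For the aligner, the counting program and the strand, settings were not given in the sources used here. The tables held 33080194 and 38756411 counts.

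Members and lists were chosen with earlier results of these data known. Names and positions came from GENCODE M21 (GRCm38), which matched 42462 of 43346 Ensembl genes. Transcripts were aligned to the mitochondrial genes with BLAST 2.17.0 (E-value limit 1e-10, word size 11), and exact 100-base windows were compared on both strands. The 2 libraries were compared with SciPy 1.17.1, a threshold of 0.05 and a minimum of 10 counts in the pair, on expected counts rounded to whole numbers. On simulated counts with counting error only, the test called 100 of 100 genes raised 2-fold, 91 of 100 raised 1.2-fold and 5 of 19482 unchanged. The simulation held no further spread between libraries and no error of read assignment, so it cannot speak to either in these data. No quasi-likelihood test is possible with 1 group. edgeR 4.0.16 (TMM) and DESeq2 1.42.0 in R 4.3.3 gave other library scalings. Levels are compared as log2(TPM + 1). Named genes were all members, aligned pseudogenes with a mean TPM of at least 1, and of each nuclear list the 3 highest, the lowest detected and every undetected gene. Gm28439, Gm13339 and Gm13340 fall outside this rule and were named after their values were seen.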

Additional observations from a re-analysis of the deposited data

How the results depend on the processing

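The 2 libraries form 1 group, and depth is lowest for mt-Nd4l, with 242 and 329 counts. No paired analysis was possible because there is only 1 group. The mitochondrial share of 3.75% became 1.85% by estimated counts, 3.94% by posterior mean TPM, 3.53% over all rows and 5.91% with the copies added. The median of the protein genes, 1311 TPM, became 2075 by posterior mean TPM, 754 as scaled counts per kilobase, and 2478 with the copies' counts. The strand difference of 1.46 became 2.48 with the copies' counts, and pseudocounts of 0.1 and 10 or counts per kilobase moved it by less than the spread of the libraries. The log2 ratio of mt-Rnr2 over mt-Rnr1 became 2.02 as counts per kilobase. The median log2 ratio of the protein genes between the libraries, -0.031, became -0.016 by totals, -0.011 by TMM and by DESeq2 size factors and -0.15 by spike-ins. The copies held 36.6% of the TPM of members and copies, 28.4% by estimated counts and 31.5% by posterior mean TPM. Each library alone gave 3.74% to 3.75% for the share, 1163 to 1459 TPM for the protein median, 1.33 to 1.60 for the strand difference, 1.95 to 1.97 for the rRNA ratio and 36.3% to 36.9% for the copies. Calls between the libraries numbered 9 to 12 under the planned scalings and minimums and 8 with the copies' counts, which was added after the data were seen. TMM and DESeq2 each gave 5 higher and 5 lower, with mt-Atp8 gained and mt-Nd6 lost (adjusted p 0.0691 and 0.0678, exact binomial test). With no minimum of counts mt-Nd6 was lost too (0.0596). Among members called before or after the change, signs turned under spike-in totals for mt-Rnr1 (-0.072), mt-Rnr2 (-0.088), mt-Nd2 (-0.13) and mt-Atp8 (-0.10), and with the copies' counts for mt-Co2 (-0.025) and mt-Co3 (-0.0061). Of the uncalled ones, mt-Nd3 turned under spike-in totals (-0.068) and mt-Nd4l with the copies' counts (-0.054). FPKM intervals left 7 members apart. All 83 nuclear genes stayed detected at 0.1 TPM and 80 at 5 TPM. The cause of these moves was not tested beyond what each change of unit or counts does by construction.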

Other observations

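Beyond the chromosome 1 run, the mitochondrial genes aligned to further nuclear genes. Of 35 aligned genes of the tables, the chromosome 1 run included, 30 were pseudogenes, of which 23 had a mean TPM below 1 and 17 had no counts in either library. Outside the pseudogenes, Cep295 (13.9 and 11.4 TPM), Naaa (12.2 and 15.6) and Ptprn2 (9.82 and 8.38) were among those that aligned through transcripts with a retained intron. None of these shared a 100-base window with a member, and they were named after their values were seen, as was Gm20594, which aligned to mt-Rnr2 and was listed at 0 TPM. A second run, on chromosome 2, holds Gm13339, Gm13340 and Gm13341, copies of parts or all of mt-Nd2, mt-Co1 and mt-Co2. Their aligned stretches were 96.7%, 97.6% and 95.9% identical to the mitochondrial genes, so that only 30, 80 and 88 of their 100-base windows were found there. Gm13339 was listed at 0 TPM in both libraries, Gm13340 at 1.00 and 0.92 TPM, and Gm13341 at 0.94 and 1.43 TPM. The chromosome 1 copies that had counts stood at 759 TPM or more in both libraries. Gm28439 on chromosome 1, with all 777 windows found in mt-Nd4, was at 0 TPM. The chromosome 2 copies of mt-Co1 and mt-Co2, whose windows mostly differ from the mitochondrial ones, were at less than 1.5 TPM. Whether shared sequence sets these levels was not tested.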
